A study of Homo sapiens with 10 samples.

Results

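The stretch of 28S rRNA from position 1700 to position 2299 was examined base by base in RibOxi-seq libraries of PA1 cells, a human ovarian teratocarcinoma line. Its 600 positions were taken by number from the 6939 positions of 18S and 28S that were counted, with 28S numbered from 0. Of these 600 positions, 4 (0.667%) are known 2′-O-methylated sites in the list that the study used, against 62 of the other 4470 positions of 28S (1.39%). The known sites are G1759, A1870, C1880 and C2291, and the other 596 positions are called unannotated here.

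In RibOxi-seq, RNA is cut at random by Benzonase, and β-elimination takes the last base off a fragment, which can bring a methylated base to its 3′-end. Periodate then converts unmethylated ends to a form that cannot be ligated, so that oxidized libraries hold mainly ends at 2′-O-methylated bases. By the protocol, control RNA went from fragmentation to ligation without oxidation, β-elimination or phosphate removal, so the 2 kinds of library differ in all these steps. Total RNA was split between a control and an oxidized library, which gave 3 control and 3 oxidized libraries on the NextSeq (replicates 1 and 2 from cells at passage 6, replicate 3 from passage 4) and 2 of each in a MiSeq pilot (passage 7) that started from less RNA. All 10 libraries came from the same untreated line, so the comparisons are between chemical treatments of the RNA and not between kinds of cell. The labels do not say whether the replicates were separate cultures, so p-values measure the spread between these libraries, which may be technical.

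2′-O-methylation of rRNA is written by fibrillarin, the methyltransferase of box C/D small nucleolar ribonucleoproteins. In each such particle a box C/D snoRNA pairs with the rRNA and places the base to be methylated at a fixed distance from its D or D′ box, whose consensus is CUGA. In the study's digestion of a test oligo, Benzonase did not cut at 2′-O-methylated bases. The methyl group also protects the ribose from periodate.

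The bases around the 4 known sites are shown first, since each result below is a count of fragments ending at these bases. The sequences are the reference rRNA of the contig GL000220.1 of GRCh37 (plus strand), written as RNA, with the listed methylated base in capitals. The contig holds 2 copies of this region, at 115048 to 115647 and at 159020 to 159619, which the counts cannot tell apart.
G1759: gaggucuuggGgccgaaacga
A1870: uuugguaagcAgaacuggcgc
C1880: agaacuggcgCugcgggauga
C2291: aggagggccgCugcggugagc

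In the first copy, G1759 lies at base 115107 of the contig, A1870 at 115218, C1880 at 115228 and C2291 at 115639. All 4 lie within the mature 28S rRNA. A1870 and C1880 are 10 nt apart, so their 21-nt windows share bases, and the end of one fragment population falls inside the window of the other. A gap of 411 nt without a listed site separates C1880 from C2291.

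The list names a guide for A1870 and for C2291 (U48), and none for G1759 and C1880. The annotated transcript of the U48 gene (GENCODE, GRCh37) is shown because C2291 differed in outcome from the other 3 sites. Capitals mark the longest run that is perfectly complementary to 28S across the listed base.
SNORD48: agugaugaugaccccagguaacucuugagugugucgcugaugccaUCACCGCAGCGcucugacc

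SNORD48 (chr6:31803040-31803103, plus strand) lies inside the long non-coding gene SNHG32 and holds an 11-nt run that pairs with 28S 2289 to 2299. The base paired with C2291 is 5 nt upstream of the first CUGA that follows the pairing. The bases at and around C1880 shown above repeat part of those paired here. The match is therefore not particular to C2291, since the same snoRNA base can also pair with C1880. These matches describe sequence only and say nothing of whether the guide is present in PA1 cells.

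The libraries differed in depth and in kind. A count here is a number of alignments. Low counts came in steps of about 50 with smaller amounts added, for a reason the sources do not give, so a count is not a read. In oxidized NextSeq replicates 1 to 3, 79, 56 and 60 positions of the region had exactly 50 counts, and 41, 52 and 51 had exactly 2. In oxidized MiSeq replicates 1 and 2, 23 and 44 had exactly 50, and 31 and 19 exactly 2. Total counts on 18S and 28S were 72458614, 80964624 and 75495510 in NextSeq control replicates 1 to 3 and 13237673, 12293410 and 13694386 in oxidized replicates 1 to 3. The MiSeq totals were 44061905 and 30392418 in the control libraries and 1568883 and 1353768 in the oxidized libraries. Values in CPM below are counts per 1000000 of these totals. A position without counts may have held up to 3 counts, which is 0.0414 CPM or less in NextSeq control libraries and 2.22 CPM in oxidized MiSeq replicate 2. If about 50 counts stand for 1 read, the same limit is 2.07 CPM and 111 CPM, and all limits cover counting error only.

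NextSeq control replicate 3 stood apart. Across the positions of the region with counts, control replicates 1 and 2 had a Spearman rho of 0.991, while replicate 3 had 0.438 with replicate 1 and 0.424 with replicate 2. At unannotated positions, 20.9% of the counts ended at A or U in control replicates 1 and 2, and 47.4% in replicate 3. In the oxidized libraries these shares were 46.7%, 50.3% and 46.0%, with oxidized replicate 3, from the same passage as control replicate 3, the lowest of the 3. With 50 counts taken as 1 read, the chi-square per degree of freedom over the region was 1.12 between control replicates 1 and 2, near that of sampling noise, against 128 between replicates 1 and 3. Over all positions replicates 1 and 2 differed slightly more than counting noise would give if 50 counts are 1 read (1.12 per degree of freedom), which does not show that they are separate samples. They were kept apart as the labels list them. Among the oxidized NextSeq libraries replicate 1 stood apart over all positions, at 11.6 and 11.1 per degree of freedom against replicates 2 and 3, with 1.14 between these, while over the region the 3 pairs lay between 0.818 and 0.903. The NextSeq fits were also computed with control replicates 1 and 2 counted as 1, as were the shares of the known sites and of the region. That value stands beside each count or call it changed. The shares by stretch and by end base were not computed in this way.

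Of the region's fragment ends, the 4 known sites took the greater part in oxidized NextSeq libraries. They held 79.1%, 83.2% and 83.7% of the region's counts in oxidized replicates 1 to 3, and 0.283%, 0.288% and 0.390% in control replicates 1 to 3. The means were 82.0% ± 2.53 (SD, n = 3) and 0.320% ± 0.0603 (SD, n = 3). In the MiSeq pilot the share was 34.7% and 33.7% in oxidized libraries and 0.450% and 0.530% in control libraries. The groups did not overlap in either experiment, and the exact permutation test (two-sided) gave the smallest p each design allows, 0.1 for NextSeq and 0.333 for MiSeq. With control replicates 1 and 2 as 1 sample the control mean was 0.338% ± 0.0738 (SD, n = 2), and the exact permutation p was again 0.1, the smallest possible. With 1 nt added on each side of the sites, the control means rose to 1.93% in NextSeq and 1.98% in MiSeq, and the oxidized means were 82.6% and 35.6%.

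**Figure D1:**
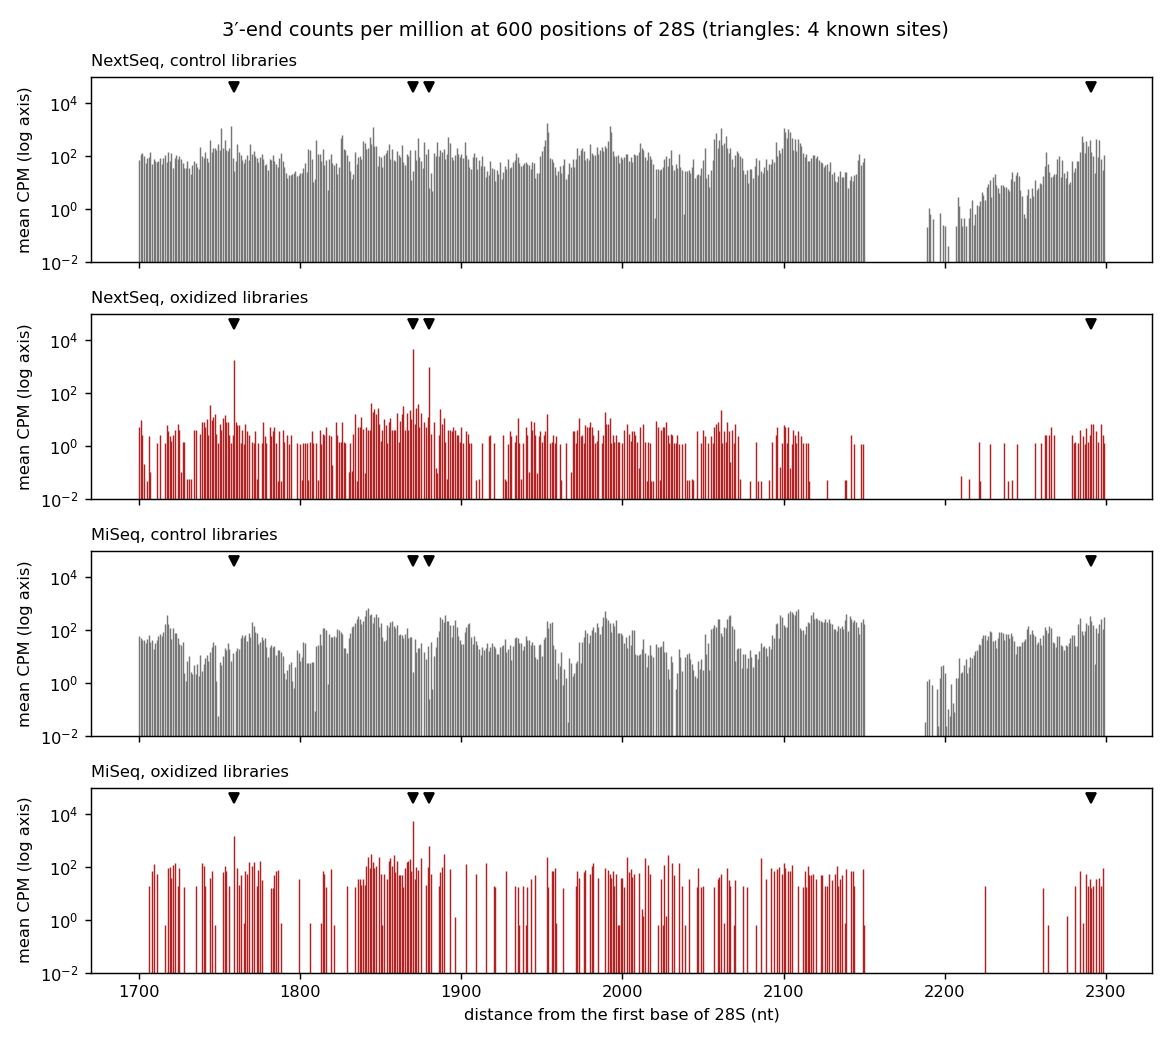
Mean CPM (log axis) of 3′-ends at the 600 positions of 28S 1700 to 2299, in control (grey) and oxidized (red) libraries of each experiment, against the distance from the first base of 28S. Triangles mark the 4 known sites. In the oxidized panels 3 of the 4 rise above their surroundings, and a run of 37 positions from 2151 has no counts in any panel.

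The contrast came almost wholly from 3 of the sites. G1759, A1870 and C1880 were higher in oxidized than in control libraries in both experiments, while C2291 was not.

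A1870 had the most oxidized ends of the region. It had 55696, 57918 and 61378 counts in oxidized NextSeq replicates 1 to 3 and 204, 58 and 6231 counts in control replicates 1 to 3. All oxidized libraries were above all control libraries, and control replicate 3 was far above the other control libraries. The mean was 4467 ± 252 CPM in oxidized and 28.7 ± 46.6 CPM in control libraries (SD, n = 3), a ratio of 156. The edgeR log2 fold change was 11.84 (SE 2.04, adjusted p = 0.0359), and without control replicate 3 it was 14.95 (adjusted p = 0.00618).

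In the MiSeq pilot A1870 had 9147 and 7283 counts in oxidized libraries and 158 and 52 in control libraries. The groups were again apart, at 5605 ± 319 against 2.65 ± 1.33 CPM (SD, n = 2), with an edgeR log2 fold change of 11.27 (SE 0.72, adjusted p = 0.00693). Among the 106 known sites of 18S and 28S, A1870 ranked at 28 by mean oxidized CPM in NextSeq and at 29 in MiSeq.

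C1880, for which the list names no guide, had 10691, 12792 and 13133 counts in oxidized NextSeq libraries and 623, 618 and 202 in control libraries. In MiSeq it had 1031 and 818 counts in oxidized libraries and 10 and 8 in control libraries. Its oxidized libraries were above its control libraries in both experiments, and control replicate 3 was the lowest of the NextSeq control libraries here, opposite to A1870. The means were 936 ± 118 against 6.30 ± 3.18 CPM (SD, n = 3) in NextSeq, with an edgeR log2 fold change of 10.98 (SE 1.13, adjusted p = 0.00422). In MiSeq they were 631 ± 37.4 against 0.245 ± 0.0257 CPM (SD, n = 2), with a log2 fold change of 11.55 (SE 0.39, adjusted p = 0.00555 by edgeR). C1880 ranked at 77 of the 106 known sites by oxidized CPM in NextSeq and at 82 in MiSeq.

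G1759, also without a named guide, had 20405, 22933 and 24802 counts in oxidized NextSeq libraries and 2221, 3346 and 870 in control libraries. The means were 1739 ± 174 against 27.8 ± 15.1 CPM (SD, n = 3), and the edgeR log2 fold change was 9.73 (SE 1.07, adjusted p = 0.00567). Its oxidized libraries lay above its control libraries, but the ratio of mean CPM was 62.5, the lowest of the 3 sites.

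In the MiSeq pilot G1759 had 2140 and 2182 counts in oxidized libraries and 0 in both control libraries. A fitted fold change against 0 depends on the prior count and is not given. Against 3 counts per control library, the oxidized libraries were at least 17800-fold higher, and against 150 counts (3 reads of 50 counts) at least 357-fold higher, both by share of library totals. Under TMM scaling these bounds were 21500 and 430. The edgeR adjusted p was 0.00693.

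C2291, the site with the U48 guide, was the exception. It had 11499, 12666 and 8789 counts in control NextSeq libraries and 104, 56 and 106 in oxidized libraries. In MiSeq it had 8505 and 7557 counts in control libraries and 50 and 0 in oxidized libraries. Every oxidized library was below every control library by share of the total, with 6.72 ± 1.87 against 144 ± 23.8 CPM (SD, n = 3) in NextSeq and 15.9 ± 22.5 against 221 ± 39.3 CPM (SD, n = 2) in MiSeq. In oxidized NextSeq libraries 57 unannotated positions of the region had a higher mean CPM than C2291, and in MiSeq 202 did. By mean oxidized CPM it ranked at 103 of the 106 known sites in NextSeq and at 102 in MiSeq.

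**Figure D2:**
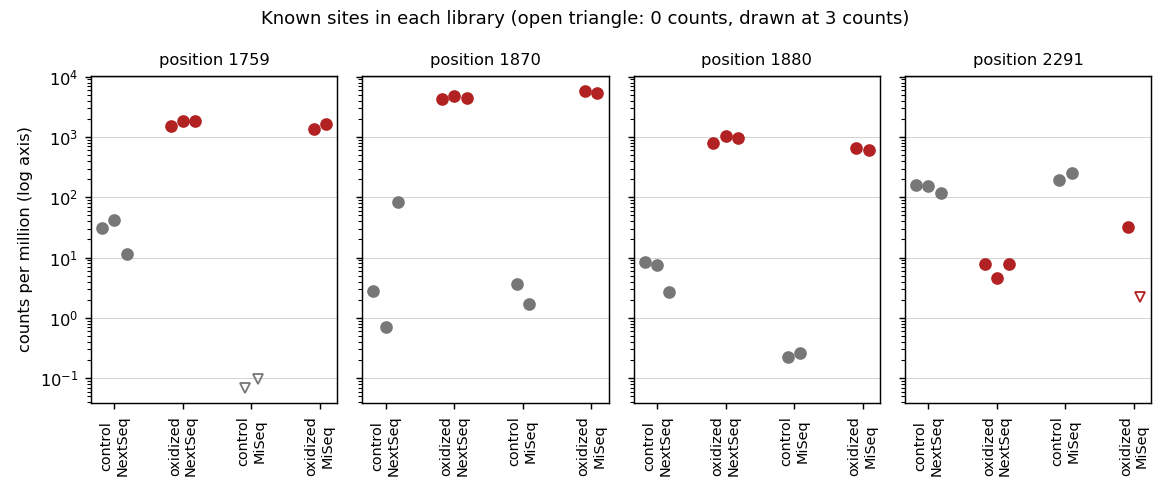
CPM (log axis) at each of the 4 known sites in every library, by group. Points are libraries, and open triangles are libraries with 0 counts, drawn at the level of 3 counts. Oxidized libraries (red) lie above control libraries (grey) at 1759, 1870 and 1880 and below them at 2291.

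The size of the NextSeq fold changes at these sites depends on the scaling. TMM scaling, used above, sets libraries by the bulk of positions, while scaling to library totals does not. The known sites together took 94.8% to 95.2% of all counts in oxidized NextSeq libraries and 0.359% to 0.732% in control libraries. In MiSeq they took 59.2% and 59.3% against 0.173%. The MiSeq log2 fold changes on totals alone were 11.04 at A1870 and 11.297 at C1880, beside 11.271 and 11.552 under TMM scaling. Why the scaling mattered more in NextSeq was not tested. On totals alone the NextSeq log2 fold changes were 5.97 at G1759, 7.28 at A1870 and 7.21 at C1880, all with an edgeR adjusted p below the threshold, at 0.00878, 0.0218 and 0.00878. G1759 then fell below the threshold of 7 used for a call. At C2291 TMM scaling gave a log2 fold change of -0.54 (SE 0.77, edgeR adjusted p = 0.652) and totals alone -4.42 (adjusted p = 0.00878). The median over all 6718 positions tested moved from -2.25 to -6.26 between these scalings, so that C2291 lay above the median of all positions in both. In MiSeq, C2291 had a log2 fold change of -3.53 (SE 1.96, edgeR adjusted p = 0.199), which passed the threshold with counts divided by 50 (-3.64, adjusted p = 0.00103). It was also past the threshold without oxidized replicate 2, at -2.44 (edgeR adjusted p = 0.00114), and without oxidized replicate 1 (adjusted p = 0.000132), which leaves only the oxidized library with 0 counts. A MiSeq fit without 1 library leaves 1 in its group, which is assumed to vary like the other group, so these p-values rest on the spread of the 2 control libraries alone and do not support a difference.

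A position was called when its adjusted p was under 0.05 and its log2 fold change exceeded 7. By this rule 3 of the region's 555 tested positions were called in NextSeq (0.541%), namely G1759, A1870 and C1880. Over all positions of 18S and 28S, 1.53% were called. No unannotated position of the region was called. The highest unannotated log2 fold change was 4.32, at C2221, which is named after its value was seen.

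In MiSeq, 4 of 557 tested positions were called (0.718%, against 2.36% of all positions), the same 3 sites and the unannotated A2032. With the replicate number as a block, which leaves 1 residual degree of freedom, none was called, with log2 fold changes of 11.39 at A1870 and 11.55 at C1880 and edgeR adjusted p of 0.17, 0.148 and 0.143 at G1759, A1870 and C1880. A2032 had 100 and 50 counts, 2 steps and 1 step of 50, in oxidized MiSeq libraries and 0 in both control libraries, so it was at least 12.1-fold higher by share of library totals, and at least 14.5-fold under TMM scaling, when 150 counts are taken as the limit of a count of 0. Against 3 counts the bounds were 604 by totals and 726 under TMM scaling. Only the latter pair exceeds the fold that a log2 fold change of 7 stands for, so the call of A2032 depends on how many reads its counts stand for, and its fitted value against 0 depends on the prior count. In NextSeq it had 50, 2 and 0 counts in oxidized libraries and 566, 475 and 5891 in control libraries. The difference between the experiments at A2032 was not past the threshold (edgeR adjusted p = 0.0541). In the pilot A2032 was no longer past the threshold without control replicate 1 or 2 (edgeR adjusted p = 0.192 and 0.189). Those fits hold 1 control library, and their spread is that of the 2 oxidized libraries alone.

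A2028, 4 nt upstream of A2032, was the only other unannotated position with a log2 fold change above 6. It had 454 and 356 counts in oxidized and 152 and 100 in control MiSeq libraries, with a log2 fold change of 6.61 (SE 0.37, edgeR adjusted p = 0.00693). Without control replicate 1 or 2, its log2 fold change was 6.713 and 6.505. Those fits hold 1 control library and do not support a call. With the replicate block it was 6.609 and not past the threshold (edgeR adjusted p = 0.17). In NextSeq it had 100, 2 and 0 counts in oxidized and 1168, 1488 and 6778 in control libraries. The bases around both are shown with the named base in capitals, since neither is a listed site.
A2028: cugccgaaucAacuagcccug
A2032: cgaaucaacuAgcccugaaaa

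**Figure D3:**
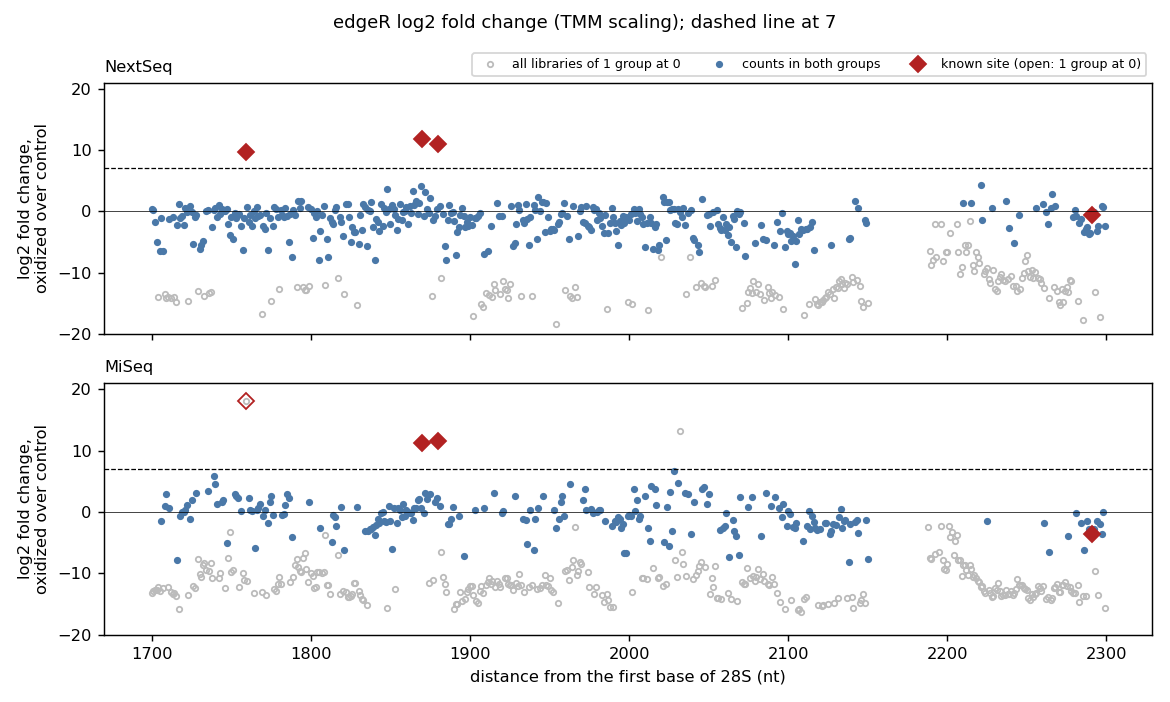
The edgeR log2 fold change (oxidized over control, TMM scaling) at each tested position, against the distance from the first base of 28S. Filled circles have counts in both groups, open grey circles have 0 in all libraries of 1 group, so that their value is not an estimate of size, and diamonds are known sites. In NextSeq, 3 known sites lie above the dashed line at 7 and no unannotated position does.

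At the 3 sites the NextSeq signal sat on single bases. Each of the 18 positions within 3 nt of G1759, A1870 and C1880 had at most 1.87% of the counts of its site in any oxidized NextSeq library. The largest was G1879, directly upstream of C1880, with 200, 106 and 206 counts. None of the 18 was past the edgeR threshold in either direction, while over all NextSeq positions 3.02% were higher and 18.8% lower. In MiSeq the highest share was 25.7%, again at G1879, with 60 and 210 counts beside 1031 and 818 at C1880. There 3 of the 18 were higher (C1761, G1868 and A1872) and 5 lower in oxidized libraries, while over all MiSeq positions 10.6% were higher and 51.6% lower.

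Around C2291, the oxidized NextSeq counts of 104, 56 and 106 exceeded those of 17, 16 and 19 of its 20 neighbours within 10 nt, whose medians were 50, 0 and 1. In MiSeq its 50 and 0 counts exceeded those of 12 and 0 neighbours. U2292, the next base downstream, had 150, 102 and 0 counts in oxidized NextSeq replicates 1 to 3. C2288, 3 nt upstream, had 52, 0 and 150 counts. These counts are of the order of 1 to 3 steps of 50, so differences among them were not detectable at this depth.

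**Figure D4:**
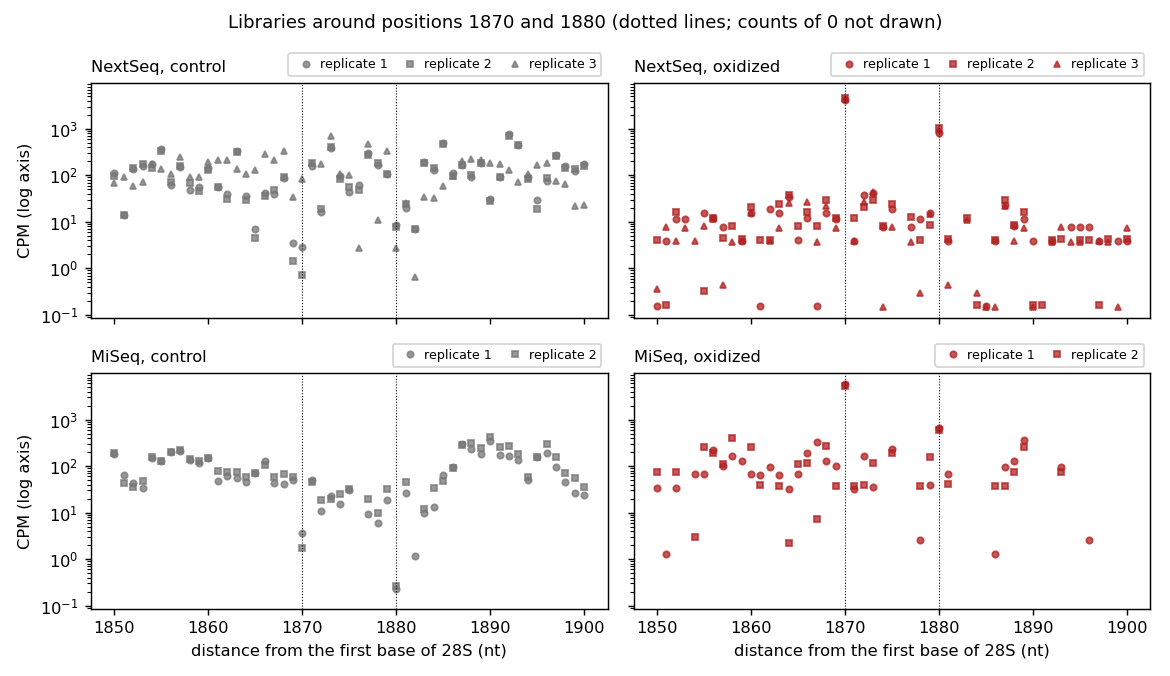
CPM (log axis) in each library at the bases from 20 nt before 1870 to 20 nt after 1880, with these positions as dotted lines. Symbols are replicates. In oxidized libraries both positions lie above all others shown, and in control libraries they lie below most of their neighbours, least so at 1870 in NextSeq replicate 3.

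The control libraries carried the reverse pattern at the same 3 sites. The count at a site was divided by the median count of the unannotated positions up to 10 nt on each side. At C1880 this ratio was 0.0755, 0.0722 and 0.0248 in NextSeq control replicates 1 to 3 and 0.00977 and 0.00818 in MiSeq control libraries. At G1759 it was 0.169, 0.227 and 0.083 in NextSeq and 0 in both MiSeq libraries, where the median neighbour had 911 and 625 counts. Fragment ends at these bases were thus scarcer than at the median neighbour in all 5 control libraries, although 2 and 3 of the 20 neighbours of G1759 were below it in NextSeq replicates 1 and 2, and 1 or 2 of the 19 neighbours of C1880 in every control library.

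At A1870 the ratio was 0.0466 and 0.0126 in NextSeq control replicates 1 and 2, 0.454 in replicate 3, and 0.0824 and 0.0301 in MiSeq. In NextSeq replicates 1 and 2 none of its 19 neighbours had fewer counts than A1870, and in replicate 3, the library with more ends at A and U, 3 had. The part of that shift in the result at A1870 was not tested beyond leaving the library out. At C2291 the ratios were 1.13, 1.07 and 1.79 in NextSeq and 1.34 and 1.54 in MiSeq, and with 5 positions on each side the NextSeq mean went from 1.33 to 0.851. It had more counts than at least 10 of its 20 neighbours in every control library.

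The counts of the 3 sites were also compared with each other within each library. Relative to A1870 in the same library, G1759 had 0.366, 0.396 and 0.404 of its counts in oxidized NextSeq libraries, and 0.234 and 0.300 in MiSeq. C1880 had 0.192, 0.221 and 0.214 in NextSeq, and 0.113 and 0.112 in MiSeq. Both ratios were higher in every NextSeq than in every MiSeq library (0.389 ± 0.0199, n = 3, against 0.267 ± 0.0464, n = 2, for G1759, and 0.209 ± 0.0151 against 0.113 ± 0.000282 for C1880, SD). For G1759 the MiSeq libraries differed from each other by about as much as the nearest libraries of the 2 experiments did. The exact permutation p was 0.1 for each, the smallest that 3 against 2 libraries allow. The experiments differ in passage, amount of RNA and sequencer, which cannot be told apart. Ratios between different bases also carry differences in ligation, so they do not rank the sites by methylation.

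A model with both experiments asked whether the oxidized to control change differed between them. It was past the threshold at 40 of 562 tested positions of the region (7.12%, against 8.20% of all positions), with G1759 as the only known site (edgeR adjusted p = 0.0169). There the control libraries differ, with 2221, 3346 and 870 counts in NextSeq and none in MiSeq. With control replicates 1 and 2 as 1 sample 5 positions were past the threshold, with G1759 at an edgeR adjusted p of 0.046, and with counts divided by 50 the adjusted p at G1759 was 0.237. The differences at A1870 (0.33 ± 1.77, log2 with SE), C1880 (-1.08 ± 1.09) and C2291 (2.52 ± 2.0) were not past the threshold (edgeR adjusted p = 1.0, 0.632 and 0.492), with errors wide enough to allow differences of several units.

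Away from the known sites, most positions held no ends after oxidation. In oxidized libraries 335, 361 and 340 of the 600 positions had no counts in NextSeq and 392 and 402 in MiSeq, against 51 to 56 in the 5 control libraries. The oxidized libraries were also less deep, and the part of depth in this difference was not tested. Of the 555 positions tested in NextSeq, 126 (22.7%, against 18.8% of all positions) were lower in oxidized libraries by edgeR and 5 higher (0.901%, against 3.02%). Of the 126, 102 had 0 counts in all oxidized libraries, so that their fitted fold changes are not estimates of size. The 2 unannotated ones among the higher, U1848 and G1864, had log2 fold changes of 3.57 and 3.34, but on library totals alone -0.72 and -0.84, neither past the threshold, so their direction depends on the scaling. The mean CPM was lower in oxidized than in control libraries (26.7 against 43.9, and 32.7 against 58.6), and control replicate 3 set these control means. At U1848 the control libraries had 17.6, 19.1 and 95.0 CPM, and without replicate 3 their mean of 18.4 lay below the oxidized mean. At G1864 the control mean was then 33.2. Neither position was past the edgeR threshold without control replicate 1 (adjusted p = 0.123 and 0.109) or 2 (0.121 and 0.113), nor with the 2 as 1 sample (0.112 and 0.101). The log2 fold changes in these fits lay between 3.31 and 3.35 at U1848 and between 3.15 and 3.26 at G1864.

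The count of lower positions past the adjusted threshold depended on control replicates 1 and 2. It was 1 without control replicate 1, 7 without control replicate 2, 8 with the 2 counted as 1 sample, 7 with the replicate number as a block, and 0 after counts were divided by 50. At an unadjusted p under 0.05, 199 positions were lower by edgeR. The count was 176 and 181 without control replicate 1 or 2 and 186 with the 2 as 1 sample. It was 115 with the block and 170 after counts were divided by 50. Unadjusted counts over all positions were not split by direction. In either direction, 210 of the region's 555 tested positions had an unadjusted edgeR p under 0.05, beside 2605 of all 6718, a similar share. The median log2 fold change, which takes in fitted values against 0, was -2.52 in the region and -2.25 over all positions. Of the 126 positions, 104 ended at G or C and 22 (17.5%) at A or U, beside 33.2% A and U among the 600 bases. In control replicates 1 and 2, 20.9% of the counts at unannotated positions ended at A or U. The base shares of lower positions over all of 18S and 28S were not computed, so these shares are a description only. Of the lower MiSeq positions described next, 93 (29.4%) ended at A or U.

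The 5 positions with the lowest fold changes in NextSeq were picked among those with at least 1000 control counts and are given as a description. G1954 had 87445, 103489 and 3538 counts in NextSeq control replicates 1 to 3 and 0 in all 3 oxidized libraries, which against 150 counts is at least 73.4-fold lower by share of library totals and at least 5.74-fold lower under the TMM scaling of the fit. G2285, G2296, G1902 and G2110 followed, at least 3.84-, 2.74-, 2.40- and 2.21-fold lower under TMM scaling. At all 5, control replicate 3 had far fewer counts than replicates 1 and 2.

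In MiSeq 316 of 557 tested positions were lower (56.7%, against 51.6% of all positions) and 35 higher (6.28%, against 10.6%). Of the 316, 268 had 0 counts in both oxidized libraries. The count of lower positions was 0 without either control library. The lowest, G2108, C2106, G2098, A1890 and G2107, had 0 counts in both oxidized libraries and were at least 3.02- to 4.38-fold lower under TMM scaling, against 150 counts. The adjacent C2106, G2107 and G2108 had between 11304 and 23679 counts in the control libraries.

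The 32 unannotated positions higher in MiSeq reached from A1709 to A2092, with a median log2 fold change of 2.99. In each, both oxidized libraries had a higher CPM than both control libraries, which their selection as higher nearly fixes. This separation held at 46 of the 596 unannotated positions of the region. Its share over all positions was not computed, so the count is not a result about the region. Besides A2028 and A2032, the highest was C1739, with 204 and 202 counts in oxidized and 158 and 56 in control libraries (log2 fold change 5.91, SE 0.63, edgeR adjusted p = 0.00693). C1739 is named after its value was seen. It was not past the threshold without control replicate 1 or 2 (edgeR adjusted p = 0.192 and 0.189) or with the replicate block (0.17), with log2 fold changes from 5.47 to 6.56 in these fits. The same held for all 32, which kept a positive log2 fold change in each of these 3 fits. None of the 32 was past the threshold in NextSeq in the same direction. Only 2 unannotated positions of the region were, so this lack of overlap says little about the 32.

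Of the 20 most frequent unannotated ends in oxidized libraries, 15 in NextSeq and 12 in MiSeq lay between 1800 and 1899, the stretch of A1870 and C1880, against 6 of 20 in the control libraries of each experiment. U1844 was the first in both experiments, with 916, 354 and 408 counts in NextSeq and 468 and 461 in MiSeq. A1873, G1744, G1864 and A1872 followed in NextSeq, with mean CPM between 28.5 and 38.5, and G1889, C1858, A2028 and U2003 in MiSeq, between 242 and 310. U1844, at 42.6 ± 23.0 CPM (SD, n = 3), was the only one of these common to both lists, and had a mean 22.0-fold below C1880 in NextSeq but 1.97-fold below it in MiSeq.

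In control NextSeq libraries the most frequent unannotated ends were U1953, C1992, G1757, G1845 and G1751, with mean CPM between 1198 and 1805. U1953 had 181301, 213166 and 21076 counts in control replicates 1 to 3, and replicate 3 was the lowest at all 5. In MiSeq control libraries they were A1842, C2109, G1841, G2108 and A2104, with mean CPM between 535 and 654. The lists share no position, and the control profiles of the 2 experiments had Spearman rho between 0.306 and 0.396 across unannotated positions of the region, a description over bases that share libraries.

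Unannotated counts were spread unevenly along the region. The stretches described here were chosen after the values of all 6 were seen, so no test is given. The stretch from 1800 to 1899 held 43.5%, 44.6% and 36.5% of them in oxidized NextSeq libraries and 23.1%, 22.5% and 23.2% in control libraries. In MiSeq it held 32.5% and 33.3% in oxidized and 24.3% and 27.2% in control libraries. The groups did not overlap in either experiment. Without the positions up to 10 nt from a known site, the means were 30.1% ± 4.39 against 20.7% ± 3.55 (SD, n = 3) in NextSeq, and in MiSeq the groups overlapped at 23.9% ± 2.66 and 23.5% ± 1.98 (SD, n = 2).

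The last 200 positions, from 2100 to 2299, showed the opposite. They held 9.07%, 4.66% and 7.68% of unannotated counts in oxidized and 23.7%, 23.7% and 12.7% in control NextSeq libraries. In MiSeq they held 14.8% and 14.2% in oxidized and 43.7% and 36.4% in control libraries. Oxidized libraries were below control libraries in both experiments. These positions are the richest in G and C, with 88% in 2100 to 2199 and 81% in 2200 to 2299, against 66.8% in the region as a whole and 69.8% in the rest of 28S.

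**Figure D5:**
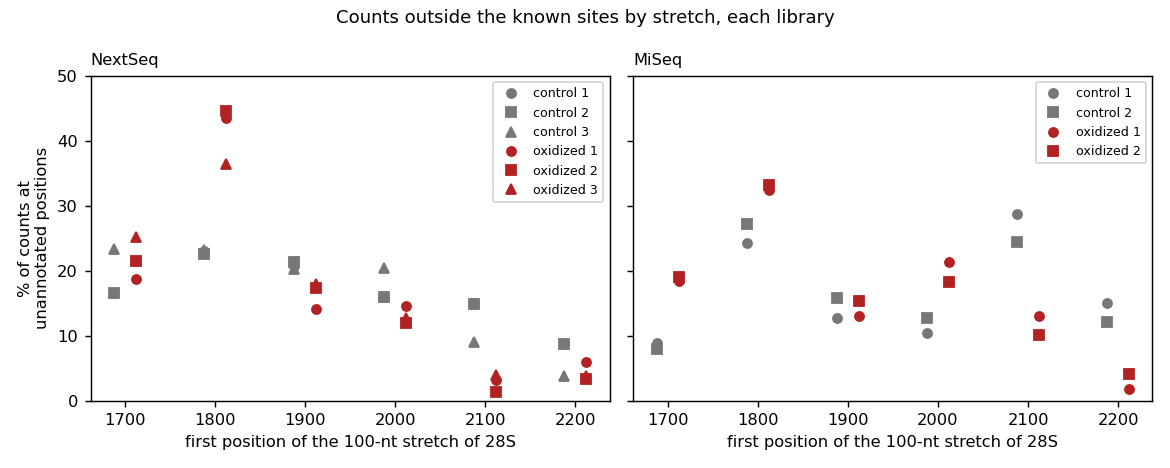
Percent of the counts at the 596 unannotated positions that fell in each 100-nt stretch, for every library of NextSeq (left) and MiSeq (right). Symbols are libraries, grey for control and red for oxidized. Oxidized libraries lie above control libraries in the stretch that starts at 1800 and below them, in sum, over the last 2.

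Part of the region was not seen at all. The 37 positions from 2151 to 2187 and position 2194 had 0 counts in all 10 libraries, and none of the known sites lies there. The run is shown because no result can be given for it, with the bases without counts in capitals and 20 nt on each side (28S 2131 to 2207, 115479 to 115555 of the contig).
Bases 2131 to 2207: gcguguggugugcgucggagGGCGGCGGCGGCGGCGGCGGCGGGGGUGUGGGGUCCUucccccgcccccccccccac

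These capitals are 89.2% G and C and open with repeats of GGC. C2291 lies 104 nt downstream of the last of them, where control ends were again frequent.

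By share of all 28S counts, the region gave 8.50%, 8.58% and 6.55% in control NextSeq libraries and 1.34%, 1.54% and 1.45% in oxidized libraries. In MiSeq it gave 4.75% and 5.17% in control and 2.83% and 2.82% in oxidized libraries. Outside the known sites, the share of unannotated 28S counts was still lower after oxidation in NextSeq, at 4.23% ± 0.596 against 7.89% ± 1.14 (SD, n = 3), and in MiSeq 4.58% ± 0.0420 against 4.94% ± 0.298 (SD, n = 2). In each case every oxidized library was below every control library (exact permutation p = 0.1 and 0.333, the smallest possible). With NextSeq control replicates 1 and 2 as 1 sample, the control means were 7.54% of all 28S counts and 7.56% outside the known sites (n = 2, exact permutation p = 0.1 for each). At 11.8% of the positions of 28S, the region thus held less than its length would give in all 10 libraries.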

How the data were processed

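Per the labels, reads were trimmed with cutadapt 1.12 and aligned with TopHat2 2.1.1 to hg19 (GRCh37), with SAMtools 0.1.19 and DESeq2 among the named tools. PCR duplicates were collapsed by a 6-base randomer. The authors deposited raw counts, without normalization, of the alignments in sense direction whose 3′-end fell on each rRNA position. Their tables of DESeq2 comparisons (fold changes and p-values) were not used.

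Positions 1700 to 2299 of 28S were described, and all positions of 18S and 28S were fitted with edgeR 4.0.16 in R 4.3.3 (TMM scaling, at least 1 count in any library, quasi-likelihood test, Benjamini-Hochberg adjustment), separately for each experiment. The script was tested on simulated data. The members and lists were chosen with earlier results of these data known. Named positions are the known sites, positions within 3 nt of them, unannotated positions with a log2 fold change above 6, the 5 highest unannotated by oxidized and by control CPM, and the 5 lowest fold changes with at least 1000 control counts. U1848, an unannotated position higher in NextSeq, was named after its value was seen, as were C2221 and C1739. Shares were compared by exact permutation tests (scipy 1.17.1). Alternatives are given at the end, including DESeq2 1.42.0. The guide of A1870 is not reported here.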

Additional observations from a re-analysis of the deposited data

Results flagged for a closer look

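The change at G1759 differed between the experiments, with a NextSeq minus MiSeq difference of -9.44 in log2 fold change (SE 1.59, edgeR adjusted p = 0.0169). The size of this difference depends on the prior count, since both MiSeq control libraries had 0 counts. With counts divided by 50 it was -3.945 and no longer past the threshold (edgeR adjusted p = 0.237). Without MiSeq control replicate 1 or 2 it was -9.365 and -9.422. Those fits hold 1 MiSeq control library and do not support a call. The oxidized levels of G1759 were 1739 ± 174 CPM (SD, n = 3) in NextSeq and 1488 ± 175 CPM (SD, n = 2) in MiSeq. The same test was past the threshold at 40 positions of the region, 39 of them unannotated, and at none without either MiSeq control library.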

How the results depend on the processing

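G1759, A1870 and C1880 kept their direction and an adjusted p under 0.05 in NextSeq under every alternative run, with log2 fold changes from 5.97 to 10.24, from 7.28 to 14.95 and from 7.21 to 11.36, and DESeq2 at an adjusted p under 0.0001 called 3 positions. RNA was split between treatments and NextSeq libraries numbered 3 share a passage, but the labels do not say that each number marks 1 RNA, and deviations of same-numbered libraries correlated at 0.028, -0.021 and 0.009 in NextSeq and at -0.009 for both MiSeq numbers. With the replicate block, 3 positions were still called in NextSeq and 7 were lower, and in MiSeq 0 were called and 0 lower although the log2 fold changes of A1870 and C1880 stayed at 11.39 and 11.55.

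The 126 lower NextSeq positions became 363 with library totals only, 201 with DESeq2, 0 with counts divided by 50, 8 with control replicates 1 and 2 as 1 sample (chosen after seeing the data), and 1 to 149 with a library left out. Over all positions the lower NextSeq count of 1262 became 4332, 2221, 2 and 81 under these settings, before any library was left out. The 316 lower MiSeq positions became 181 with counts divided by 50 and 0 to 374 with a library left out, and the 4 MiSeq calls became 3 to 4. The 5 higher NextSeq positions became 3 with library totals only, counts divided by 50, the replicate block or control replicates 1 and 2 as 1 sample, 10 with passage as a covariate, 12 with DESeq2 and 3 to 14 with a library left out. Over all positions the higher NextSeq count of 203 became 95, 117, 115, 114, 297 and 327 in the same order, before any library was left out. The 35 higher MiSeq positions became 0 with the replicate block and 3 to 66 with a library left out. These higher counts were varied after the data were seen. The 40 differences between the experiments became 5 with counts divided by 50 or with control replicates 1 and 2 as 1 sample, and 0 to 67 with a library left out. With 1 nt added on each side of the known sites, oxidized shares were 82.6% and 35.6% (NextSeq, MiSeq) and control shares rose from 0.320% to 1.93% and from 0.490% to 1.98%. The region's share was 4.23% and 4.58% outside known sites and 2.79% in MiSeq with counts divided by 50. The stretch from 1800 to 1899 held 30.1% and 23.9% away from known sites, a stretch and an alternative also chosen after seeing the data. With 5 positions on each side the control ratio was 0.851 (NextSeq) and 1.68 (MiSeq) at C2291 and 0.0151 in MiSeq at C1880, and with 20 it was 0.248 at G1759 and 1.75 at C2291 in NextSeq and 0.00456 at C1880 in MiSeq.

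In NextSeq the log2 fold change of A2032 (-0.07) turned to 0.35 with passage as a covariate, 1.30 without control replicate 3, and 0.46 and 0.51 without oxidized replicates 2 and 3. That of A2028 (0.32) turned to -4.01 with library totals only, -0.34 with counts divided by 50, -2.97 with the replicate block, -0.001 with passage as a covariate and -4.79 without oxidized replicate 1. With library totals only, U1848 turned from 3.57 to -0.72 and G1864 from 3.34 to -0.84. With a library left out, A2032 ranged from -4.21 to 1.30 and A2028 from -4.79 to 0.94. None of the 4 was past the threshold in the fits that turned its sign, and the cause of these changes was not tested. Depth limits statements at unannotated positions of oxidized libraries, where most hold no more than 1 step of 50 counts.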
